A study of Mus musculus with 4 samples.

Results

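Immediate early and stress response genes, the transcripts that cells raise within minutes to hours of being disturbed, were read in sorted mouse ES-derived cells. Their members were 32 genes given by symbol (17 immediate early genes and 15 genes of the heat shock, integrated stress, DNA damage and oxidative stress responses), and each single-gene probe set of the array that carries one of these symbols was taken. This gave 63 of 45037 probe sets, and 32 of the 18193 genes that have a probe set of their own. All 32 members passed the filter on dim probe sets, as did 12849 genes in all.

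The samples were 4 arrays of EB3 mouse ES cells (strain 129/Ola) that carry GFP under the CAG promoter. The cells were differentiated through embryoid bodies with Activin at 10 ng/mL, and on day 18 the GFP-expressing cells were sorted into a KSP-positive and a KSP-negative fraction with an antibody against KSP, the kidney-specific cadherin. There were 2 arrays of each fraction, from 2 independent experiments. Both fractions share the line, the transgene, the medium with Activin, the day and the dissociation: trypsin-EDTA and collagenase at body temperature, a recovery period in warm medium, antibody staining on ice, exclusion of dead cells with propidium iodide and flow sorting. The question read here is whether the genes known to answer such handling differ between the fractions. All data are from 1 ES line, and undissociated or unsorted cells were not analysed here, so the arrays give levels after sorting and not the change that handling made. Cdh16, the gene of KSP, had log2 signals of 5.66 and 5.03 in the KSP-positive arrays and 5.30 and 4.71 in the KSP-negative arrays, so its transcript overlapped between the fractions (adjusted p = 0.816 from limma). Its probe set was dim, with a KSP-negative mean of 5.0 under the filter on dim probe sets (5.14). The overlap therefore does not show that the fractions have equal Cdh16.

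Immediate early genes need no new protein for their induction: kinases of the MAPK pathways activate serum response factor, its Elk partners and CREB, which already sit at these promoters, and the short-lived transcripts encode transcription factors such as Fos, Jun and Egr1 together with the phosphatases and RNA-binding proteins that end the signal. The heat shock response runs through Hsf1, which is released by unfolded protein and binds repeats of GAA and its complement TTC in front of chaperone genes. In the integrated stress response, phosphorylation of eIF2-alpha favours translation of Atf4, which binds with C/EBP partners and induces Ddit3 and Trib3. Enzymatic release of cells from tissue is a well known trigger of the first and the second of these programs.

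The stretches of promoter named in these accounts are shown for 7 members whose values the results below turn on or which stand for their group. Of the 32 members, 26 have a window in the RefSeq promoter table (GRCm38.p6), and the promoters of Egr1, Egr3, Ier2, Hspa8, Hsp90aa1 and Hmox1 were not analysed here. Each line gives the 250 bases before the transcript start, 5′ to 3′ on the strand of the gene. Capitals mark matches, found on either strand, to GAANNTTC or TTCNNGAA (paired heat shock repeats) in Hspa1a, Hspa1b and Hsph1, to TGACG or CGTCA (the core of a CREB and ATF site) in Trib3 and Fos, and to TGATGCAA or TTGCATCA (a C/EBP and ATF composite) in Gadd45g. Gadd45a, the only member that passed the test, and Gadd45g are shown because their signals differed in opposite directions between the fractions.
Gadd45a (chr6:67037408-67037657, minus strand): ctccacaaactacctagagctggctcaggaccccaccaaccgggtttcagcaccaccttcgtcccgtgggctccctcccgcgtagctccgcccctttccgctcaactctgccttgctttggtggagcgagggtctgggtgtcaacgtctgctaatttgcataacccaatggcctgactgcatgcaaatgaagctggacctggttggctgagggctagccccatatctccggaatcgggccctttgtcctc
Gadd45g (chr13:51846425-51846674, plus strand): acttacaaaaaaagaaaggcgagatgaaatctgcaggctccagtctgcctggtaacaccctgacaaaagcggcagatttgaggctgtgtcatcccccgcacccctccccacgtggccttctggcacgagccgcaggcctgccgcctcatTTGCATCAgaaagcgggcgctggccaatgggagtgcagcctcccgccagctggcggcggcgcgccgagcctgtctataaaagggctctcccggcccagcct
Hspa1a (chr17:34972157-34972406, minus strand): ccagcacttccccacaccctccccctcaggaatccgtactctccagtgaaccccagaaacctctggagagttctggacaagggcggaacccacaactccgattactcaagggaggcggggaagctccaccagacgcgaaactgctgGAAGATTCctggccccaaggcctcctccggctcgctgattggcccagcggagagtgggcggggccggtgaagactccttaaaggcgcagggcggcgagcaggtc
Hspa1b (chr17:34959239-34959488, minus strand): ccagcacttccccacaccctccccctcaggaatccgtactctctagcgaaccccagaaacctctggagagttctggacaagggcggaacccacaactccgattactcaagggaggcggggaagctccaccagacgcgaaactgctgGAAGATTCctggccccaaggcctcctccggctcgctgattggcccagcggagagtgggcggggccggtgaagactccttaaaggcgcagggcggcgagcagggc
Hsph1 (chr5:149636337-149636586, minus strand): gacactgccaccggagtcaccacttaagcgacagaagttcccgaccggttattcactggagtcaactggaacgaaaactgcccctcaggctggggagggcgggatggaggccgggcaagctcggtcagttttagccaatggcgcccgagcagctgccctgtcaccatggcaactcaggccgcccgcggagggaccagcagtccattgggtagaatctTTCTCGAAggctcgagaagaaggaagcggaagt
Trib3 (chr2:152344061-152344310, minus strand): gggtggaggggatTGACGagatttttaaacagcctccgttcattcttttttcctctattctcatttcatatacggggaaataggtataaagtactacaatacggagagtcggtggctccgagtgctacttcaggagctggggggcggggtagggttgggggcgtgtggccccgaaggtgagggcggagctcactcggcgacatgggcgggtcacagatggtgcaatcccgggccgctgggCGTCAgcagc
Fos (chr12:85473640-85473889, plus strand): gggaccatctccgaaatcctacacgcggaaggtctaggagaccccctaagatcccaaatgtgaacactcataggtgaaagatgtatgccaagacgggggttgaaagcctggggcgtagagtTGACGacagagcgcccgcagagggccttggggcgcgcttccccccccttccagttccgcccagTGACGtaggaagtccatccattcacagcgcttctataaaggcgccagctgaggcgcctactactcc

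The windows of Hspa1a and Hspa1b differ at 3 of 250 bases and both hold GAAGATTC at the same place, 104 to 97 bases before the start. Hsph1 holds TTCTCGAA 33 to 26 bases before it, and is the first of 2 windows listed for that gene. Members are counted here as genes with a match in any of their windows, whereas percentages are over single windows, so the 2 are not compared. A paired heat shock repeat was present in 6 of the 26 members with a window (Jun, Egr2, Hspa1a, Hspa1b, Hsph1 and Hspb1) and in 12.8% of all 32851 windows. TGACG or CGTCA was present in 12 members, among them Fos, Fosb, Junb, Atf3, Nr4a1, Dusp1 and Trib3, and in 17.8% of all windows. The C/EBP and ATF composite was present in Atf3 and Gadd45g and in 0.791% of all windows. TGANTCA, the AP-1 site, was found in Ddit3 alone (6.75% of all windows), and the CArG box of serum response factor in Egr2 and Zfp36 (1.47% of all windows). The window of Gadd45a held none of these motifs. These are matches of letters in a window of fixed length, and they say nothing about binding in these cells.

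Levels below are log2 signals, scaled so that the 75th percentile of each array was equal, and a difference is the mean of the KSP-positive minus the mean of the KSP-negative arrays, where 1 means 2-fold. Each member is represented by its brightest probe set. A gene is called when limma's test, adjusted over the 12849 genes by Benjamini and Hochberg, gives p under 0.05. Since an array measures pooled cells, fewer cells of a type and less RNA per cell cannot be told apart. The p-values measure only spread between the 2 arrays of each fraction, and limma draws the spread of each gene toward that of genes with similar signal. Levels of different probe sets are not on 1 scale and are not compared.

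The immediate early genes gave clear signals in both fractions, and none of the 17 was called. A level of 8.13 on this scale is the 75th percentile of all probe sets, and 28 of the 32 members were above it on all 4 arrays. The exceptions were Ddit3, Trib3, Gadd45a and Hmox1, all of them stress response genes.

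**Figure D1:**
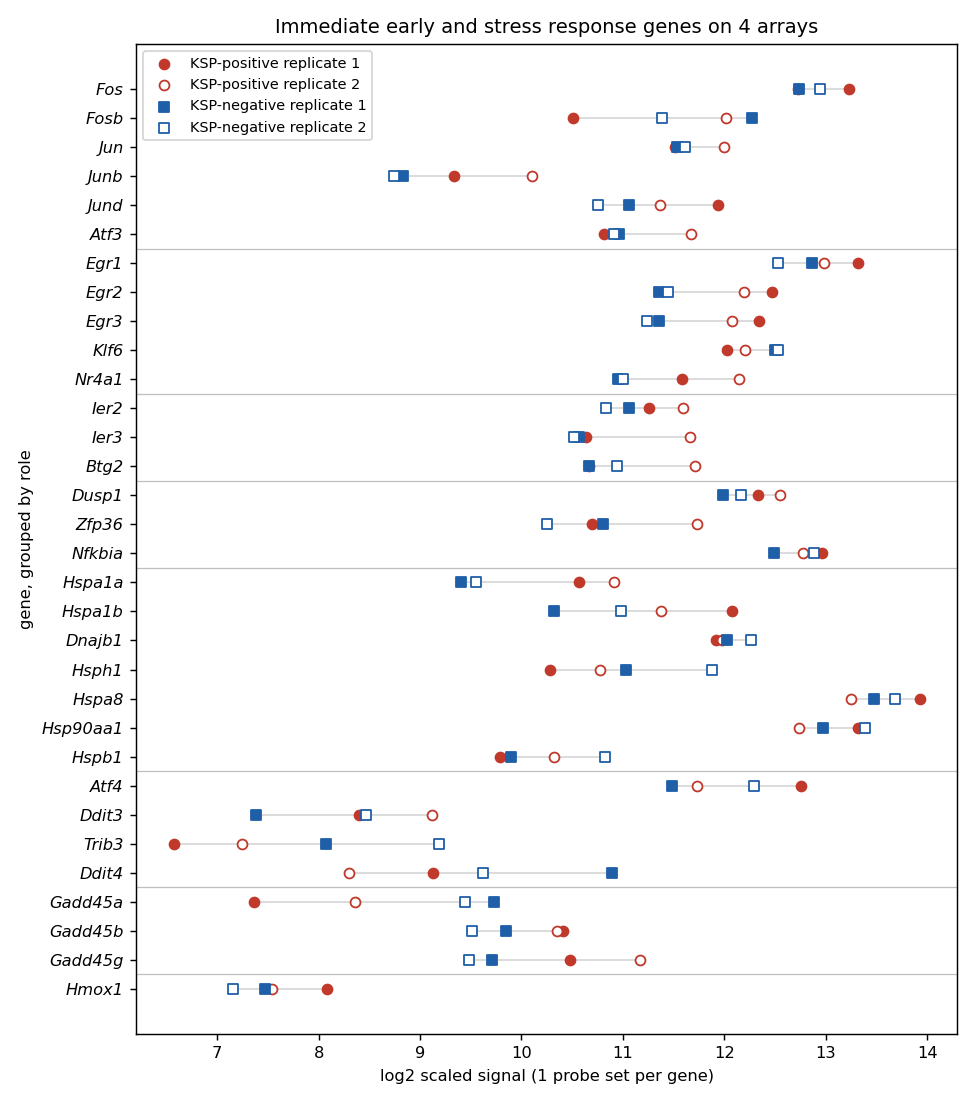
Log2 signal (x axis) of the 32 members (y axis, grouped by role) on each of the 4 arrays, where red circles are KSP-positive and blue squares KSP-negative, filled for replicate 1 and open for replicate 2. Both arrays of the KSP-positive fraction lie above both KSP-negative arrays for 14 members and below them for 6, and the remaining 12 overlap.

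The AP-1 genes encode the Fos and Jun proteins, which dimerize on the AP-1 site, and their partner Atf3. Fos had log2 signals of 13.23 and 12.73 in the KSP-positive and 12.74 and 12.94 in the KSP-negative arrays. Jun measured 11.51 and 12.00 against 11.53 and 11.61. Both overlapped between the fractions, with differences of 0.14 (95% confidence interval -0.57 to 0.85) and 0.18 (-0.54 to 0.91). Fosb was the most variable AP-1 gene, at 10.51 and 12.02 in the KSP-positive and 12.27 and 11.39 in the KSP-negative arrays, so the difference of -0.57 was smaller than the gap between its KSP-positive replicates. Atf3, a repressor induced by many stresses, had 10.81 and 11.67 against 10.96 and 10.91, which overlap. Junb, which can oppose Jun, had 9.33 and 10.10 in the KSP-positive and 8.83 and 8.74 in the KSP-negative arrays, a difference of 0.93 ± 0.38 (standard error, adjusted p = 0.222 from limma). Jund, the most constitutive Jun protein, had 11.94 and 11.37 against 11.06 and 10.75 (adjusted p = 0.290). Both Junb arrays and both Jund arrays of the KSP-positive fraction were above the KSP-negative ones without passing the test. Of the 6 genes, 5 had a higher mean in KSP-positive cells, with a median difference of 0.25.

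The zinc finger factors Egr2 and Egr3 and the orphan nuclear receptor Nr4a1 were, with Junb, the immediate early genes with the largest differences. Egr2, which is also a factor of Schwann cells and hindbrain, had log2 signals of 12.47 and 12.19 in the KSP-positive and 11.36 and 11.44 in the KSP-negative arrays, and Egr3 had 12.34 and 12.08 against 11.36 and 11.24. Nr4a1 measured 11.58 and 12.14 against 10.95 and 11.00. In each of these genes the fractions did not overlap, and the difference was larger than the gap between replicates of either fraction. The differences were 0.93 ± 0.32 for Egr2, 0.90 ± 0.32 for Egr3 and 0.89 ± 0.34 for Nr4a1 (standard errors, 1.91-, 1.87- and 1.85-fold). They had adjusted p-values of 0.146, 0.158 and 0.193 from limma and unadjusted p-values of 0.0135, 0.0159 and 0.0236. Egr1, the founding member, had 13.32 and 12.98 against 12.86 and 12.53, apart in the same direction but by only 0.45 (interval -0.25 to 1.15). Klf6, a Krüppel-like factor, was the exception in this group, at 12.03 and 12.20 in the KSP-positive and 12.50 and 12.53 in the KSP-negative arrays (difference -0.39, adjusted p = 0.555). The 5 genes had a median difference of 0.89.

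The remaining immediate early genes act on growth, survival and the end of the signal. Ier2 had log2 signals of 11.26 and 11.59 in the KSP-positive and 11.06 and 10.83 in the KSP-negative arrays. Ier3, which modulates survival, had 10.64 and 11.66 against 10.57 and 10.52, and the antiproliferative Btg2 had 10.67 and 11.71 against 10.67 and 10.94. For Ier3 and Btg2 the higher mean rested on KSP-positive replicate 2, since replicate 1 was at or next to the KSP-negative values. Dusp1, the phosphatase that inactivates MAP kinases, had 12.33 and 12.55 against 11.99 and 12.16. Zfp36, which marks AU-rich transcripts for decay, had 10.70 and 11.73 against 10.80 and 10.25. Nfkbia, the inhibitor of NF-kappaB that NF-kappaB itself induces, had 12.96 and 12.78 against 12.49 and 12.88. Dusp1 separated the fractions by 0.36 (interval -0.32 to 1.05), whereas Zfp36 and Nfkbia overlapped. The differences of these 6 genes lay between 0.19 and 0.69, with adjusted p-values from 0.414 to 0.815.

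The inducible Hsp70 genes and their cofactor Hsph1 differed between the fractions in opposite directions, none of them past the test. Hspa1a had log2 signals of 10.57 and 10.91 in the KSP-positive and 9.40 and 9.55 in the KSP-negative arrays, or signals of 1525 and 1924 against 673 and 751. Hspa1b had 12.08 and 11.38 against 10.32 and 10.98, or signals of 4322 and 2667 against 1281 and 2013. Both were over 2-fold higher in the KSP-positive fraction, Hspa1a by 2.41-fold (difference 1.27 ± 0.34 standard error, adjusted p = 0.0706 from limma) and Hspa1b by 2.11-fold (1.08 ± 0.38, adjusted p = 0.157), and neither passed the test. The other 2 probe sets of Hspa1b differed by 0.92 and 0.95. The genes are near-identical copies, so their probe sets may read both transcripts and are not independent. Hsph1, the exchange factor that loads Hsp70 with new ATP, had its lower values in the KSP-positive fraction, at 10.28 and 10.77 against 11.03 and 11.88 (difference -0.93 ± 0.38, adjusted p = 0.229), and its other probe set differed by -0.90. Within each array, the log2 signal of Hspa1a minus that of Hsph1 was 0.29 and 0.14 in the KSP-positive and -1.63 and -2.32 in the KSP-negative arrays, a pair chosen after the values were seen. This restates the opposite signs above without the scaling between arrays, and was not tested.

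At their brightest probe sets the other chaperones overlapped or lay close together. Dnajb1, the Hsp40 partner of Hsp70, had log2 signals of 11.92 and 11.98 against 12.03 and 12.26. The constitutive Hspa8 had 13.93 and 13.25 against 13.48 and 13.68, and Hsp90aa1, the inducible HSP90, had 13.32 and 12.74 against 12.97 and 13.39. The small heat shock protein gene Hspb1 had 9.79 and 10.32 against 9.90 and 10.82. The other 2 probe sets of Hsp90aa1 over the filter did not overlap: 1 had 11.29 and 11.35 against 12.27 and 12.10 (difference -0.86), the other 11.44 and 11.27 against 11.52 and 12.37 (-0.59), and the mean of its probe sets differed by -0.53. At the brightest probe sets the differences of these 4 genes lay between -0.30 and 0.01, and the 7 heat shock genes had a median of -0.15. Hspa8, Hsp90aa1 and Atf4 were, at their brightest probe sets, highest in KSP-positive replicate 1 and KSP-negative replicate 2. In the same arrays the 3′ over 5′ ratio of the actin control probe sets, which grows as RNA or cDNA becomes shorter, was 2.92 and 3.55, against 1.80 and 1.79 in the other arrays. Fosb was lowest in those same arrays. Other probe sets over the filter were lower in KSP-positive replicate 1 than in replicate 2: that of Atf4 (11.0 and 11.57), a dim one of Hspa8 (7.52 and 8.01) and one of Hsp90aa1 (11.29 and 11.35). The remaining ones of Hspa8 and Hsp90aa1 were higher in KSP-positive replicate 1. The part of the actin ratio in these values was not tested.

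Among the genes of the integrated stress response, the largest differences were in Trib3 and Ddit4, both with lower means in KSP-positive cells, and none of the 4 genes passed the test. Atf4, the transcription factor of the response, had log2 signals of 12.76 and 11.73 in the KSP-positive and 11.48 and 12.29 in the KSP-negative arrays and overlapped. Ddit3, which encodes the pro-apoptotic factor CHOP, had 8.40 and 9.12 against 7.38 and 8.47 (difference 0.83, interval -0.15 to 1.82). Trib3, the pseudokinase induced by both, had 6.57 and 7.24 against 8.07 and 9.19, or signals of 94.7 and 151 against 268 and 582. Ddit4, an inhibitor of mTORC1 induced by hypoxia, glucocorticoid and energy stress, had 9.13 and 8.30 against 10.89 and 9.62, or signals of 561 and 315 against 1901 and 787. Both arrays of the KSP-positive fraction were below both KSP-negative arrays for Trib3 and Ddit4, 3.30- and 2.91-fold lower by the means, with adjusted p-values of 0.0719 and 0.107 from limma. The brightest probe set of Trib3 may also detect other transcripts by its design, and its second probe set overlapped between the fractions (difference -1.30). The second, dimmer probe set of Ddit3 had the opposite sign, at 6.56 and 6.2 against 6.57 and 6.69 (difference -0.25). At the brightest probe sets, Ddit3 minus Trib3 on each array was 1.83 and 1.87 in the KSP-positive and -0.69 and -0.72 in the KSP-negative arrays. This was again a pair picked after its values were seen.

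Gadd45a, whose product binds PCNA and stress kinases and which p53 induces after DNA damage, was the only member that passed the test. It had log2 signals of 7.36 and 8.36 in the KSP-positive and 9.73 and 9.44 in the KSP-negative arrays, or signals of 165 and 329 against 848 and 695. Gadd45a was thus 3.30-fold lower in KSP-positive cells (difference -1.72 ± 0.41 standard error, interval -2.63 to -0.82, adjusted p = 0.0472 from limma). The KSP-positive arrays were 1.0 apart and the KSP-negative arrays 0.29. The call was near the threshold: it was lost without KSP-positive replicate 1 (adjusted p = 0.296), KSP-negative replicate 1 (0.107) or KSP-negative replicate 2 (0.132), while the difference stayed between -2.22 and -1.22. It was lost in 10 of 16 alternatives in all, among them quantile normalization (0.0632), the mean of probe sets (0.0510), no intensity trend (0.0826) and no filter (0.360). Its paralogs were not called. Gadd45g had 10.48 and 11.17 against 9.71 and 9.48, or signals of 1429 and 2308 against 836 and 714, 2.35-fold higher by the means (difference 1.23 ± 0.36, adjusted p = 0.0970). Gadd45b, which is induced by NF-kappaB and TGF-beta signalling, had 10.41 and 10.35 against 9.85 and 9.51 (difference 0.70, adjusted p = 0.314) at its brightest probe set. That probe set may also detect other transcripts by its design. The other 2 probe sets of Gadd45b differed by -0.37, with both KSP-positive arrays below, and by -0.04. Gadd45g minus Gadd45a was 3.12 and 2.81 in the KSP-positive and -0.02 and 0.04 in the KSP-negative arrays. This pair, too, was chosen with its values known.

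Hmox1, the heme-degrading enzyme that Nrf2 induces under oxidative stress, had 8.08 and 7.54 against 7.47 and 7.16. Its KSP-positive arrays were both the higher ones, with a difference of 0.50 (interval -0.37 to 1.36, adjusted p = 0.563).

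**Figure D2:**
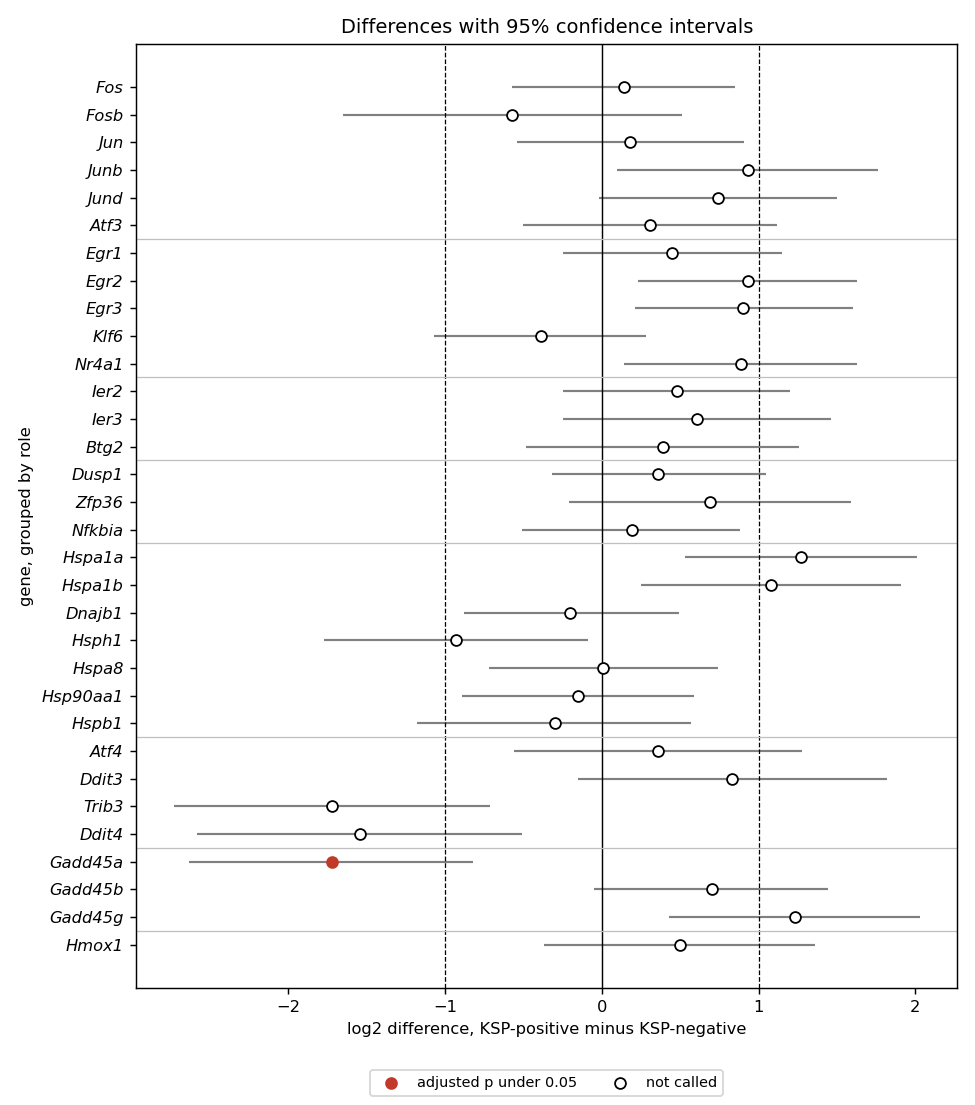
Difference of mean log2 signal, KSP-positive minus KSP-negative (x axis), for each of the 32 members (y axis, grouped by role), with its 95% confidence interval from limma as a bar; dashed lines mark 2-fold and the filled point the only call. Gadd45a, Trib3 and Ddit4 lie beyond 2-fold on the lower side, and Hspa1a, Hspa1b and Gadd45g on the higher side.

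Counted over the members, none of 32 was called higher in KSP-positive cells, where limma called 236 of 12849 genes (1.84%), and 1 was called lower (3.12%), against 212 genes (1.65%). Without adjustment, 7 members had p under 0.05 on the higher side (21.9%, against 9.05% of all genes): Junb, Egr2, Egr3, Nr4a1, Hspa1a, Hspa1b and Gadd45g. On the lower side these were 4 (12.5%, against 8.72%): Hsph1, Trib3, Ddit4 and Gadd45a. Differences over 2-fold were close to the background, with 3 higher (9.38%, against 7.92%) and 3 lower (9.38%, against 7.66%). Both KSP-positive arrays were above both KSP-negative arrays for 14 members (43.8%, against 24.4% of all genes) and below for 6 (18.8%, against 24.6%). The immediate early genes made up 9 of those 14 and 1 of those 6, and 15 of the 17 had a higher mean in KSP-positive cells, with a median difference of 0.45. The 15 stress response genes were split, with 5 above, 5 below and a median of 0.01. The median over all genes tested was -0.03. No more is read from the counts, since co-induced genes are not independent.

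The replicates of the KSP-positive fraction were less alike in these genes than those of the KSP-negative fraction. The median gap between replicates was 0.56 in the KSP-positive and 0.28 in the KSP-negative arrays over the members, and 0.51 and 0.18 over the immediate early genes. Over all genes the gaps were 0.39 and 0.43. For 15 of 32 members at least 1 of these gaps exceeded the difference between the fractions, as it did for 8249 of 12849 genes.

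Probe sets of the same gene limited some of these readings. The brightest probe sets of Klf6, Hspa8, Atf4, Trib3 and Gadd45b may also detect other transcripts by their design. Of 16 members with more than 1 probe set over the filter, 8 had probe sets of both signs: Atf4, Btg2, Ddit3, Dnajb1, Egr3, Gadd45b, Hspa8 and Klf6. The second probe set of Egr2 gave a wider difference (1.95, with 12.99 and 12.05 against 11.43 and 9.71), and 1 of the other 4 of Nfkbia gave 1.28 (10.51 and 10.83 against 9.36 and 9.43). Dnajb1 differed by -0.20 at its brighter and 0.89 at its dimmer probe set, where 9.30 and 9.53 stood against 8.64 and 8.41. The second probe set of Egr3 was dim on all arrays, at 5.0 and 5.54 against 6.14 and 5.52. Hspa1b, Hsph1, Trib3, Hspb1 and Hsp90aa1 kept 1 sign in all their probe sets over the filter, and 15 members had a single probe set, Gadd45a and Gadd45g included.

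**Figure D3:**
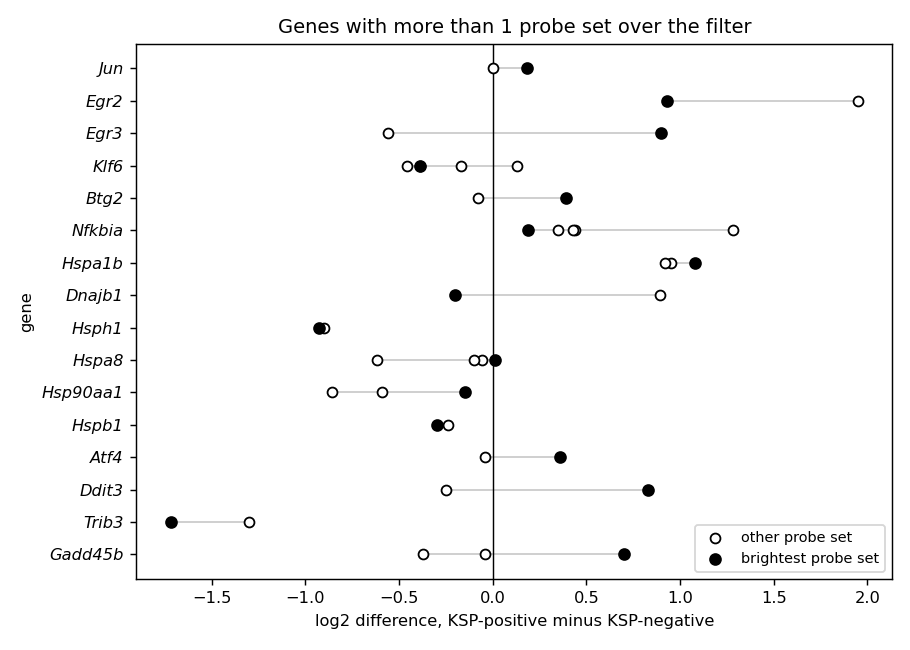
Difference of mean log2 signal, KSP-positive minus KSP-negative (x axis), of each probe set over the filter for the 16 members that have more than 1 (y axis); filled points are the brightest probe set, used for the gene, and open points the others. Probe sets of 6 genes (Egr3, Nfkbia, Dnajb1, Ddit3, Gadd45b and Egr2) are over 1 log2 unit apart. Those of Egr3 are the widest, at -0.56 and 0.90, whereas those of Hspa1b and Hsph1 nearly coincide.

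The wider pathways were read through 8 lists with 203 different genes on the array, of which 200 passed the filter. Plk2 stood in 2 lists, and Btg2, a member, also in that of p53 targets. For comparison with the counts below, limma called 1.84% of all genes tested higher and 1.65% lower. Without adjustment, 9.05% had p under 0.05 on the higher and 8.72% on the lower side. Among 41 other immediate early genes, 7 had an unadjusted p under 0.05 on the higher side and none on the lower, with a median difference of 0.29. After adjustment, 1 was called higher and none lower. This was Cebpd, a C/EBP factor of the acute phase, at 9.19 and 9.62 in the KSP-positive and 8.03 and 7.31 in the KSP-negative arrays (3.32-fold, adjusted p = 0.0386 from limma). Among 15 kinases and factors upstream of these genes, 1 was called: Elk3, a partner of serum response factor, at 10.61 and 10.40 against 8.96 and 8.87 (3.02-fold, adjusted p = 0.0293). Of 28 other heat shock factors and chaperones none was called, 1 had an unadjusted p under 0.05 on the higher and 5 on the lower side, and the median was -0.40. The methods' t-test called no gene on the array after adjustment.

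Among 37 genes of the unfolded protein and integrated stress responses, only Asns was called, and lower. Asns, asparagine synthetase and an Atf4 target like Trib3, had 8.85 and 10.18 against 11.34 and 11.68 (3.99-fold lower, adjusted p = 0.0346). Without adjustment 10 of the 37 were lower (against 8.72% of all genes) and 5 higher (against 9.05%), with a median of -0.13. Of 22 p53 targets, Pmaip1 (Noxa, a BH3-only killer) was called lower at 6.71 and 8.03 against 9.53 and 9.94 (5.14-fold, adjusted p = 0.0203). Fas, the death receptor, had 7.26 and 7.07 against 3.70 and 3.62, with 1 KSP-negative array at the floor. It passed the filter only through the KSP-positive fraction, where it is high, so nothing is read from its call (adjusted p = 0.00725). Of 19 genes of oxidative stress, Gsr, glutathione reductase, was called lower (6.12 and 7.47 against 8.67 and 8.81, adjusted p = 0.0479). Of 18 genes regulated by hypoxia or mTOR, P4ha2, a collagen prolyl hydroxylase, was called higher (11.34 and 11.23 against 10.15 and 8.90, adjusted p = 0.0485).

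The list of NF-kappaB factors and targets stood furthest from 0, with a median of 0.92 over 21 genes. In it 4 were called higher (against 1.84% of all genes) and none lower (1.65%). Without overlap, 16 genes were above (24.4%) and 1 below (24.6%). Without adjustment, 11 of the 21 had p under 0.05 from limma on the higher side (against 9.05% of all genes) and none on the lower (8.72%). Each of these counts on the higher side holds Il6, which is not read for the reason given below. Cxcl2, a chemokine for neutrophils, had 12.02 and 11.92 in the KSP-positive and 8.94 and 8.2 in the KSP-negative arrays (10.6-fold higher, adjusted p = 0.00202 from limma). The cytokine Il1b had 8.79 and 8.59 against 6.06 and 6.93 (4.59-fold, adjusted p = 0.0183). Ccl2, a chemokine for monocytes, had 8.75 and 9.74 against 7.43 and 6.01 (5.75-fold, adjusted p = 0.0262). Il6, among the 4 called, had 7.36 and 9.02 against 5.84 and 4.38 (8.46-fold by the means). Its KSP-negative mean of 5.11 was under the filter of 5.14, so it passed only through the fraction where it is high. Nothing is read from the call of Il6 (adjusted p = 0.0266 from limma). Both arrays of the KSP-positive fraction were higher in Cxcl2, Il1b and Ccl2. Without KSP-negative replicate 2, Ccl2 (adjusted p = 0.140), Il6 (0.148), Cebpd (0.204), Elk3 (0.100), Asns (0.154), Pmaip1 (0.120), Gsr (0.216) and P4ha2 (0.230) were no longer called. Without KSP-positive replicate 1 this held for Elk3 (0.127), Asns (0.193), Pmaip1 (0.0618), Gsr (0.266) and P4ha2 (0.0762), without KSP-positive replicate 2 for Cebpd (0.0806), and without KSP-negative replicate 1 for Gsr (0.0836). Cxcl2 and Il1b remained called with any 1 array left out. The difference of Il6 lay between 2.25 and 3.91 with 1 array left out (2.35 without KSP-negative replicate 2, 3.91 without KSP-positive replicate 1), around 3.08 with all arrays, and its KSP-negative mean was just under the filter. That of Ccl2, 2.52, was 1.82 without KSP-negative replicate 2 and 3.23 without KSP-negative replicate 1, and that of P4ha2, 1.76, was 1.14 and 2.39. Without KSP-positive replicate 1 and 2 in turn, the differences were -1.33 and -2.66 for Asns (-2.0 with all arrays), -1.70 and -3.02 for Pmaip1 (-2.36) and -1.27 and -2.62 for Gsr (-1.95).

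**Figure D4:**
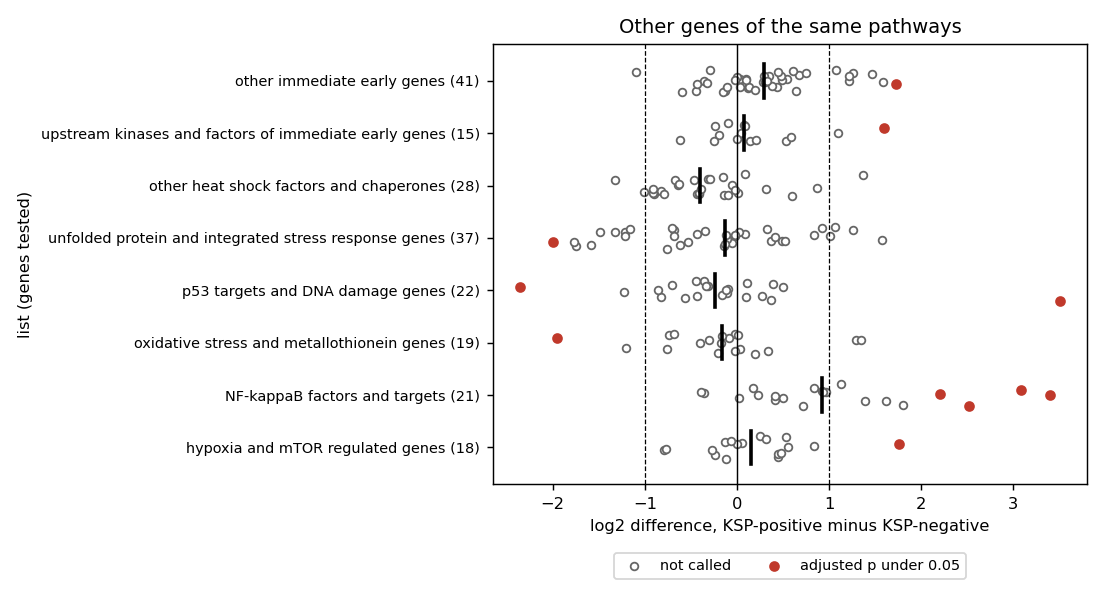
Difference of mean log2 signal, KSP-positive minus KSP-negative (x axis), of each gene tested in the 8 pathway lists (y axis), with the median of each list as a bar; filled points passed the test. The NF-kappaB list has a median of 0.92 and the other heat shock list one of -0.40.

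The fractions also differed in cell type markers. Of 16 macrophage markers tested, 13 were called higher in KSP-positive cells, with C1qa, C1qc and Fcgr1, which are not read, among them. The calls that are read are those of Ptprc, Cd68, Csf1r, Adgre1, C1qb, Lyz2, Ctss, Tyrobp, Cd14 and Mrc1. The summed signal of the 18 on the array was 31761 and 14959 in the KSP-positive and 2995 and 3192 in the KSP-negative arrays. Aif1 and C1qa were at the floor in both of the latter, and Aif1 did not pass the filter of 5.14. C1qa, C1qc and Fcgr1, with KSP-negative means of 3.62, 4.34 and 3.9, passed it only through KSP-positive cells. Nothing is read from their calls. All 12 pluripotency markers were called lower, with summed signals of 1534 and 1867 against 13274 and 26391. The calls that are read are those of Pou5f1, Sox2, Zfp42, Dppa4, Dppa5a, Esrrb, Tdgf1, Fbxo15, Dppa2 and Tfcp2l1. Nanog and Utf1, with KSP-positive means of 3.98 and 4.61, passed the filter only through KSP-negative cells, so nothing is read from their calls either. Of 11 epithelial markers 7 were called lower (8414 and 10615 against 23523 and 29666), and of 12 mesenchymal markers 6 were called higher (90103 and 66267 against 43528 and 30724). Of 10 renal tubule markers on the array only 5 passed the filter, 1 was called lower, and Umod and Slc12a3 were at the floor on all 4 arrays. Il1b and Cxcl2 are typical products of macrophages. The part of these cell types in the differences above was not tested. Sums for endothelium (1375 and 4645 against 2892 and 1506) and cardiomyocytes (5575 and 11432 against 5242 and 4150) came with no call. That for neurons (3841 and 2627 against 1719 and 1730) came with 1 call in each direction. Ncam1, the gene called higher, gave the largest part of the neuron sum (signals of 3373 and 2317 against 1088 and 716). Of the 7 neuron markers tested, only Ncam1 had a higher mean in KSP-positive cells, and the median difference was -0.63.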

How the data were processed

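Expression was measured in 4 sorted samples on the Affymetrix Mouse Genome 430 2.0 array after labelling of total RNA with biotin in 2 cycles of amplification. The authors deposited 1 linear signal intensity per probe set and array, made with MAS5 according to the submitters' processing notes. The paper analysed them in GeneSpring with a setting that is not given in the sources used here.

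Arrays were brought to the same 75th percentile, a signal of 281 (factors 0.874 to 1.24), signals below the overall 20th percentile (12.3) were raised to it, and log2 was taken. Of 45037 probe sets besides 64 controls, 34945 have 1 gene, 932 several and 9160 none in the platform annotation, and 204 symbols were kept as listed. The filter asked for a mean above the 40th percentile, and the brightest single-gene probe set stood for its gene, which gave 12849 genes. Arrays of 1 fraction correlated at 0.945 in both fractions. The number of arrays limits the precision.

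The test was that of limma 3.58.1 in R 4.3.3 (empirical Bayes with an intensity trend, Benjamini-Hochberg adjustment over all genes tested), a procedure tested on simulated data. An exact permutation of 2 against 2 arrays gives no two-sided p under 0.333 and was not used. Replicates were not paired, since no source ties their numbers to the experiments. The members, the lists of related genes and markers, and the tests were chosen with earlier results of these data known. All members are named, and of each pathway list at most the 4 genes with the smallest p among those called. Of 222 different genes in these lists 203 are on the array, 3 of them (Aars1, Sars1 and Wars1) under older symbols. Promoter windows came from RefSeq (GRCm38.p6). Figures were drawn with matplotlib 3.10.9 in Python 3.11.15. Alternatives were quantile normalization, the unscaled deposited values, other floors and filters, other uses of probe sets, a robust fit, a fit without the trend, a fit blocked on the replicate number, a 3-fold threshold, the methods' t-test and each array left out. The same alternatives for the named pathway genes were added after seeing the data. Genes that lack a single-gene probe set, and items withheld here, are not reported.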

Additional observations from a re-analysis of the deposited data

How the results depend on the processing

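The median difference of the members, 0.38, lay between 0.28 and 0.47 under all alternatives. Of 512 single values of members under alternatives, 478 kept their direction and side of the threshold, 8 passed it newly, 10 lost it and 16 turned sign. Gadd45a was the only member called with the settings of the report, so all 10 losses were its own. The values as deposited move the median of all genes from -0.03 to -0.12.

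The number of members called lower, 1, was 2 with the values as deposited (Gadd45a and Trib3) and 0 with quantile normalization, no filter, a floor at the 40th percentile, every probe set alone, the mean over the probe sets of each gene, no intensity trend and the methods' t-test. With 1 array left out it was 0 to 2: Ddit4 without KSP-positive replicate 1 (adjusted p = 0.0304), Gadd45a (0.00424) and Trib3 (0.0122) without KSP-positive replicate 2, Trib3 without KSP-negative replicate 1 (0.0263) and none without KSP-negative replicate 2. The lone array of a fraction was then assumed to vary like the other fraction. The adjusted p of Gadd45a ranged from 0.00424 to 0.525 over all alternatives. With no filter, limma called none of 18193 genes, 1184 and 1091 having an unadjusted p under 0.05 higher and lower. The methods' t-test likewise called 0 of 12849 after adjustment and 666 and 570 without, with 3 members higher and 1 lower. Against 236 genes higher and 212 lower, the values as deposited called 286 and 352, leaving out KSP-positive replicate 2 gave 368 and 424, KSP-negative replicate 1 gave 343 and 275, and KSP-negative replicate 2 gave 72 and 52.

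With a replicate block, 2 members were called higher (Gadd45g and Hspa1a) and 3 lower (Gadd45a, Trib3 and Ddit4), and 571 and 560 of all genes. Same-numbered arrays had deviations that correlated at 0.166 across genes, which with 2 pairs does not show a pairing.

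Members over 2-fold higher, 3, were 5 with every probe set alone (Egr2 and Nfkbia added), 0 at 3-fold and 2 to 7 with 1 array left out. Without KSP-positive replicate 1, 7 were over 2-fold higher, Junb, Nr4a1, Ier3, Zfp36 and Ddit3 among them. Without KSP-positive replicate 2, 5 were, Egr2, Egr3 and Jund among them. Members over 2-fold lower, 3, were 3 to 5 with 1 array left out, the 5 (Fosb and Hsph1 added) without KSP-positive replicate 2.

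Signs turned for 11 members. Dnajb1 was 0.35 and Hspa8 -0.19 with the mean of probe sets, and Hspa8 was -0.08 with the values as deposited. With 1 array left out, ranges were -0.11 to 0.39 for Fos, -1.32 to 0.18 for Fosb, -0.07 to 0.43 for Jun, -0.12 to 0.74 for Atf3, -0.13 to 0.91 for Btg2, -0.01 to 0.38 for Nfkbia, -0.33 to 0.35 for Hspa8, -0.44 to 0.14 for Hsp90aa1, -0.76 to 0.15 for Hspb1 and -0.16 to 0.87 for Atf4. Of the 11 pathway genes named, all lost the call with no filter and with the methods' t-test, and Cxcl2, Il1b and Fas kept it under each other alternative that gave a value. Of 16 alternatives, Gsr lost it under 10, P4ha2 under 9, Cebpd and Elk3 under 8, Asns under 6, Ccl2 under 5 and Pmaip1 under 4, and Il6 under 4 of 15. Quantile normalization ended the calls of Gsr and P4ha2, the deposited values those of Cebpd and Elk3, and the mean of probe sets those of Gsr, P4ha2, Cebpd (difference 0.92 in place of 1.73) and Elk3 (0.72 in place of 1.60). Every probe set alone ended those of Cebpd, Elk3, Asns, Gsr, Ccl2, Il6 and P4ha2, and no intensity trend the same ones except Il6.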
